A study of Mus musculus with 23 samples.

Results

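The clustered protocadherins are cell-surface adhesion molecules encoded by neighbouring gene arrays named alpha, beta and gamma. Members were taken as the protein-coding genes of the GRCm39 annotation that carry a clustered protocadherin symbol and reached a summed raw count of at least 50 over all 23 libraries. By that rule 54 of 58 candidates were kept, among 56941 genes in the count tables. They comprised 10 alternate alpha genes, the alpha C-type genes *Pcdhac1* and *Pcdhac2*, 21 beta genes, 11 gamma A genes, 7 gamma B genes and the gamma C-type genes *Pcdhgc3*, *Pcdhgc4* and *Pcdhgc5*.

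Each neuron is known to switch on a small and largely random set of the alternate genes, through promoters that need CTCF and cohesin, together with the C-type genes, which most neurons express. The proteins bind copies of themselves on other membranes, so that the branches of the same neuron recognise and avoid each other, and the gamma proteins are also known for roles in dendrite branching and in the survival of neurons. In the alpha and gamma arrays a variable exon, which encodes the extracellular part, the membrane span and a short tail, is spliced to constant exons that all members of the array share, while beta genes have no constant exons.

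RNA was sequenced from cultured hippocampal neurons of Nedd8cKO mice, in which loxP sites flank exons of *Nedd8*, the gene of a ubiquitin-like protein modifier. Both groups came from pups at P0, homozygous for this allele, and were infected on day 1 in vitro with lentivirus under the Synapsin1 promoter, which is active in neurons. The RFP virus encodes a red fluorescent protein and left the allele intact, and the CRE virus encodes the recombinase together with RFP. The 12 CRE and 11 RFP libraries, harvested on day 12 by the labels and on day 13 by the methods, are labelled with a number from 1 to 3 beside the group name and with a replicate number. The first number was taken to stand for the culture, which neither the labels nor the methods state in words, so that CRE 1-3 is read as replicate 3 of culture 1 and all values by culture rest on this reading. The comparison asked how the RNA of the conditional knockout neurons differed from that of the controls. It used 11 CRE and 10 RFP libraries, without CRE 3-3 and RFP 3-2.

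Totals of counted reads ran from 7430401 to 13345552 in the CRE libraries compared and from 9833872 to 17112815 in the RFP libraries. CRE 3-3 held 1546796 counts, and in RFP 3-2 the ribosomal RNA gene *Rn18s-rs5* took 24.2% of the counts. CRE 1-3 and RFP 2-4, which stayed in the comparison, stood apart with 0.261% and 3.43% of counts from the mitochondrial genome, against 7.0% to 11.1% in the other 19. *Nedd8* was at 11.5 ± 3.49 CPM (reads of the gene relative to library size, after TMM scaling; SD, n = 11) in CRE and at 61.4 ± 10.2 CPM (SD, n = 10) in RFP libraries, with no overlap (log2 fold change -2.44, SE 0.17, adjusted p = 6.98e-11 in the quasi-likelihood test of edgeR, with p-values adjusted by Benjamini-Hochberg). Neuron markers were abundant in both groups. Of the microglia markers, *Cx3cr1*, *P2ry12*, *Aif1*, *Itgam*, *C1qa* and *Trem2* stayed under 1 CPM on average in both groups, and *Csf1r* averaged 0.59 CPM in CRE and 1.21 CPM in RFP libraries.

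All candidates lie on the plus strand of chromosome 18 between positions 37063237 and 37975014 of GRCm39, a stretch of 912 kb, in the order alpha, beta, gamma. Each alpha member shared exon bases with 13 or 14 other genes and each gamma member with 26, whereas a beta member shared them with at most 1. Reads that fall on constant exons alone therefore name no gene. They were not credited to every gene that contains those exons, since *Pcdhga10* stood at 0 counts in all 23 libraries and *Pcdha4* at 9 counts in total. The values below thus rest on the variable exons of alpha and gamma genes and on whole beta genes. The median library of each group had a count for all 54 members, which together took 591 to 840 CPM of the raw totals in CRE and 710 to 938 CPM in RFP libraries.

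Of 53 members that passed the expression filter, 24 differed between CRE and RFP libraries at an adjusted p under 0.05, a share of 45.3% where 30.2% of all 14488 genes tested did so. The direction was uneven: 23 members were lower in CRE libraries (43.4%, against 13.8% of all genes) and 1 was higher (1.89%, against 16.4%). The log2 fold change, as a point estimate without regard to the test, was negative in 47 of 53 members and in 48.3% of all genes. Its median was -0.54 over the members and 0.02 over all genes. *Pcdha8*, with 135 counts in all, was the member that did not pass the filter. In bulk RNA, fewer neurons in a culture and less RNA per neuron cannot be told apart.

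The count varied with the libraries used. Without culture 2, 9 members differed, 17% of the members against 14.3% of all genes. With the libraries of each culture summed, 14 did, 25.9% against 22.8% of all genes. In both fits the share of members thus lay near that of all genes. In the summed fit 24.1% of the members were lower, against 11% of all genes. With all 23 libraries 20 differed (37.7%, against 28.2%), and without the 4 libraries that stood apart 24 did (45.3%, against 38.1%). With all 23 libraries 35.8% of the members were lower in CRE, against 11.8% of all genes. Without the 4 libraries 43.4% were lower, against 18.7% of all genes.

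**Figure D1:**
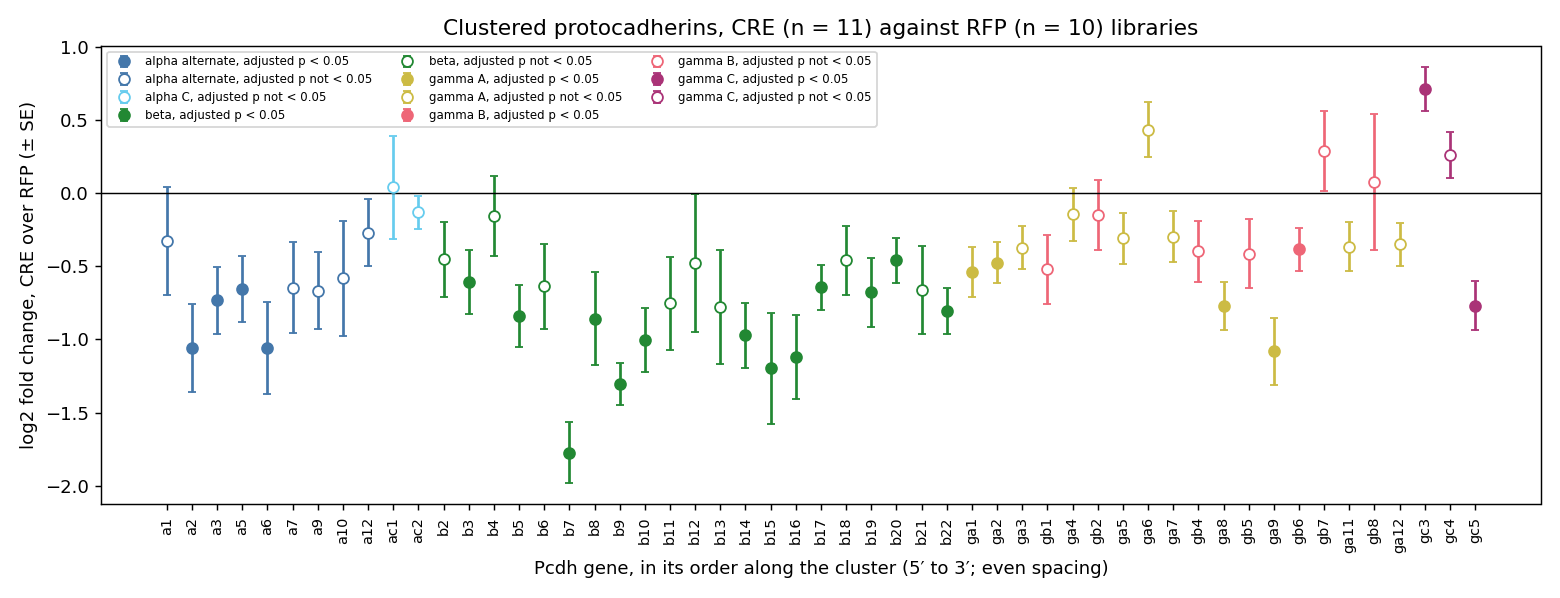
Log2 fold change of CRE (n = 11) over RFP (n = 10) libraries for the 53 members tested, with SE bars, in their order along the cluster and coloured by group; filled points had an adjusted p under 0.05 in edgeR. Every beta point lies below 0, *Pcdhb7* lies lowest at -1.78 and *Pcdhgc3* highest at 0.71.

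The largest array of members, the beta genes, was lower throughout. All 21 had a negative log2 fold change (median -0.75). The 13 that passed the test were all lower in CRE libraries (61.9%, against 13.8% of all genes). Summed over the 21 genes, the level was 98.5 to 224 CPM in CRE libraries (median 162) and 248 to 303 CPM in RFP libraries (median 259). All 11 CRE libraries thus lay below every RFP library, and the mean CRE sum was 57.5% of the RFP mean.

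*Pcdhb7* and *Pcdhb9*, which like the other beta genes encode adhesion receptors with a short tail of their own, were the members with the smallest p. *Pcdhb7* (ENSMUSG00000045062, positions 37474755 to 37478255, a single exon) ran from 2.72 to 8.96 CPM in CRE libraries (median 5.64) and from 15.0 to 22.6 CPM in RFP libraries (median 17.9). Its log2 fold change was -1.78 (SE 0.21, adjusted p = 3.68e-07, edgeR). *Pcdhb9* (ENSMUSG00000051242, positions 37533908 to 37550127) ran from 6.15 to 15.2 CPM in CRE (median 11.8) and from 22.9 to 35.9 CPM in RFP libraries (median 27.1), a log2 fold change of -1.31 (SE 0.14, adjusted p = 1.58e-07, edgeR). For both genes the highest CRE library stayed below the lowest RFP library. No other member separated the groups in this way, and 2.08% of all genes tested had every CRE library below every RFP library. No member had every CRE library above every RFP library, as 2.64% of all genes did. *Pcdhb7* and *Pcdhb9* were also the members past an absolute log2 fold change of 1.3 and a -log10 adjusted p of 6, which 1.39% of all genes passed. In the libraries left out, *Pcdhb7* was at 3.41 CPM in CRE 3-3 and at 20.3 CPM in RFP 3-2. Of the 50-base stretches of *Pcdhb7*, 8.6% also occur in transcripts of other genes, most of all in *Pcdhb9*. For *Pcdhb9* the share was 7.2%, most of all in *Pcdhb7*, so the counts of these genes may not be fully separate.

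Other beta genes fell with overlap between the groups. *Pcdhb22* ran from 9.64 to 26.0 CPM in CRE (median 16.8) and from 19.2 to 38.1 CPM in RFP libraries (median 27.7), with 9 CRE libraries below the lowest RFP library (log2 fold change -0.81, SE 0.16, adjusted p = 0.000332, edgeR). *Pcdhb10* ran from 2.59 to 8.75 CPM in CRE (median 5.33) and from 7.04 to 15.9 CPM in RFP libraries (median 11.9; log2 fold change -1.01, SE 0.22, adjusted p = 0.000888, edgeR). *Pcdhb14* ran from 2.32 to 18.7 CPM in CRE (median 8.06) and from 11.3 to 21.6 CPM in RFP libraries (median 17.2; log2 fold change -0.97, SE 0.22, adjusted p = 0.00161, edgeR), and 10 of 11 CRE libraries were below the lowest RFP library. For *Pcdhb17* the ranges were 8.58 to 19 CPM in CRE (median 13.6) and 15.2 to 24.4 CPM in RFP libraries (median 20.0; log2 fold change -0.64, SE 0.15, adjusted p = 0.00218, edgeR). *Pcdhb3*, *Pcdhb5*, *Pcdhb8*, *Pcdhb15*, *Pcdhb16*, *Pcdhb19* and *Pcdhb20* made up the rest of the 13, with log2 fold changes from -1.20 (*Pcdhb15*) to -0.46 (*Pcdhb20*). Of these, *Pcdhb8* (adjusted p = 0.043, edgeR) passed the test in 10 of the 21 fits that each left out 1 library. The 8 beta genes that did not pass lay between -0.78 (*Pcdhb13*) and -0.16 (*Pcdhb4*).

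The alternate alpha genes were lower too. All 9 tested had a negative log2 fold change (median -0.65) and 4 passed the test (44.4%, where 13.8% of all genes were lower). Their sum was 32.5 to 61.0 CPM in CRE libraries (median 49.5) and 61.9 to 83.2 CPM in RFP libraries (median 71.8), again without overlap. The highest CRE sum, 61.0, came from CRE 1-3, just under the lowest RFP sum.

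*Pcdha2* ran from 1.72 to 8.88 CPM in CRE (median 3.69) and from 3.77 to 13.1 CPM in RFP libraries (median 9.31), with all 11 CRE libraries below the RFP median (log2 fold change -1.06, SE 0.30, adjusted p = 0.00814, edgeR). *Pcdha6* ran from 0.41 to 6.45 CPM in CRE (median 2.41) and from 4.40 to 7.72 CPM in RFP libraries (median 6.16; log2 fold change -1.06, SE 0.31, adjusted p = 0.0114, edgeR). Of its annotated stretches of 50 bases, 29.1% also occur in transcripts of another gene, the highest share among the members, so part of its count is uncertain. The lowest such share among the alternate alpha members was 10.2%. *Pcdha3* (log2 fold change -0.73, adjusted p = 0.0155, edgeR) and *Pcdha5* (-0.65, adjusted p = 0.030, edgeR) fell as well. *Pcdha5* missed the threshold with all 23 libraries (adjusted p = 0.053, edgeR). Without culture 2 *Pcdha2*, *Pcdha3*, *Pcdha5* and *Pcdha6* all missed it, where 14.3% of all genes passed. With sums per culture *Pcdha2* and *Pcdha5* missed it (adjusted p = 0.060 and 0.071, edgeR). *Pcdha12* did not pass, with 3.22 to 16.5 CPM in CRE (median 7.51) and 5.18 to 13.8 CPM in RFP libraries (median 9.70). It was the highest alternate alpha gene per kilobase of unshared exon, though not with all exon bases.

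**Figure D2:**
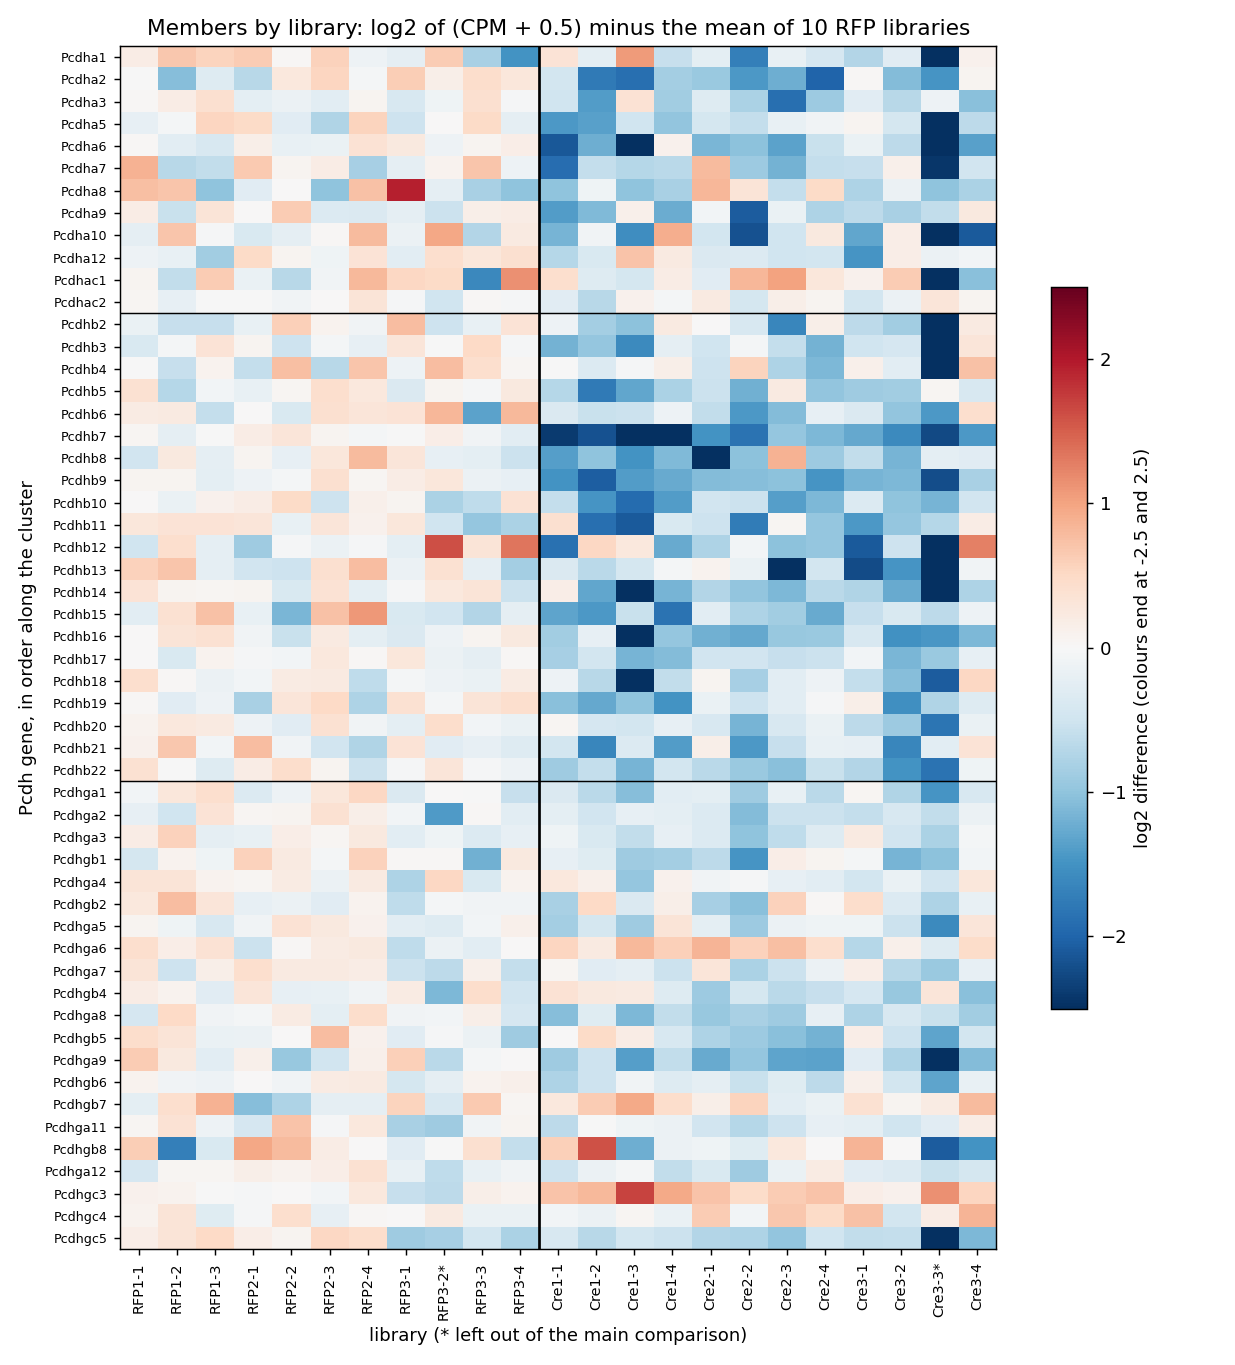
Each row is a member in its order along the cluster and each column a library; colour gives log2 of (CPM + 0.5) minus the mean of that value over the 10 RFP libraries compared, and lines part the alpha, beta and gamma arrays. The CRE columns are mostly blue through the alternate alpha and the beta rows, paler in the gamma A and B rows, and red in the *Pcdhgc3* row.

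In the gamma A and gamma B genes the medians lay closer to 0. Of 11 gamma A genes, 4 fell (36.4%, against 13.8% of all genes) and 10 had a negative log2 fold change (median -0.37). The gamma A sum was 106 to 161 CPM in CRE (median 144) and 142 to 211 CPM in RFP libraries (median 182), with 4 CRE libraries below the lowest RFP library. Of 7 gamma B genes, 1 fell, *Pcdhgb6* (log2 fold change -0.38, SE 0.15, adjusted p = 0.047, edgeR). That share, 14.3%, lay near the 13.8% of all genes. *Pcdhgb6* passed the test in 8 of the 21 fits without 1 library. The gamma B sum was 32.7 to 62.7 CPM in CRE (median 44.2) and 48.4 to 61.6 CPM in RFP libraries (median 55.7).

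*Pcdhga8* ran from 7.22 to 14.0 CPM in CRE (median 9.12) and from 12.1 to 23.3 CPM in RFP libraries (median 15.6; log2 fold change -0.77, SE 0.16, adjusted p = 0.000724, edgeR). *Pcdhga9* ran from 2.45 to 5.80 CPM in CRE (median 3.42) and from 3.49 to 11.5 CPM in RFP libraries (median 7.58; log2 fold change -1.08, SE 0.23, adjusted p = 0.000736, edgeR). In both genes all 11 CRE libraries were below the RFP median, though the ranges overlapped. *Pcdhga2* (log2 fold change -0.48, adjusted p = 0.0119, edgeR) and *Pcdhga1* (-0.54, adjusted p = 0.0178, edgeR) also fell, and *Pcdhga2* missed the threshold with all 23 libraries (adjusted p = 0.093, edgeR). *Pcdhga11*, the highest alternate gene per kilobase of unshared exon, though not with all exon bases, did not pass, at 10.0 to 19 CPM in CRE (median 14.0) and 9.29 to 27.7 CPM in RFP libraries (median 16.8). *Pcdhga6* went the other way without passing the test: 6.17 to 19.1 CPM in CRE (median 15.3) and 6.5 to 14.0 CPM in RFP libraries (median 11.2), with 8 CRE libraries above the highest RFP library (log2 fold change 0.43, SE 0.19, adjusted p = 0.081, edgeR). It passed when CRE 3-1 was left out.

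**Figure D3:**
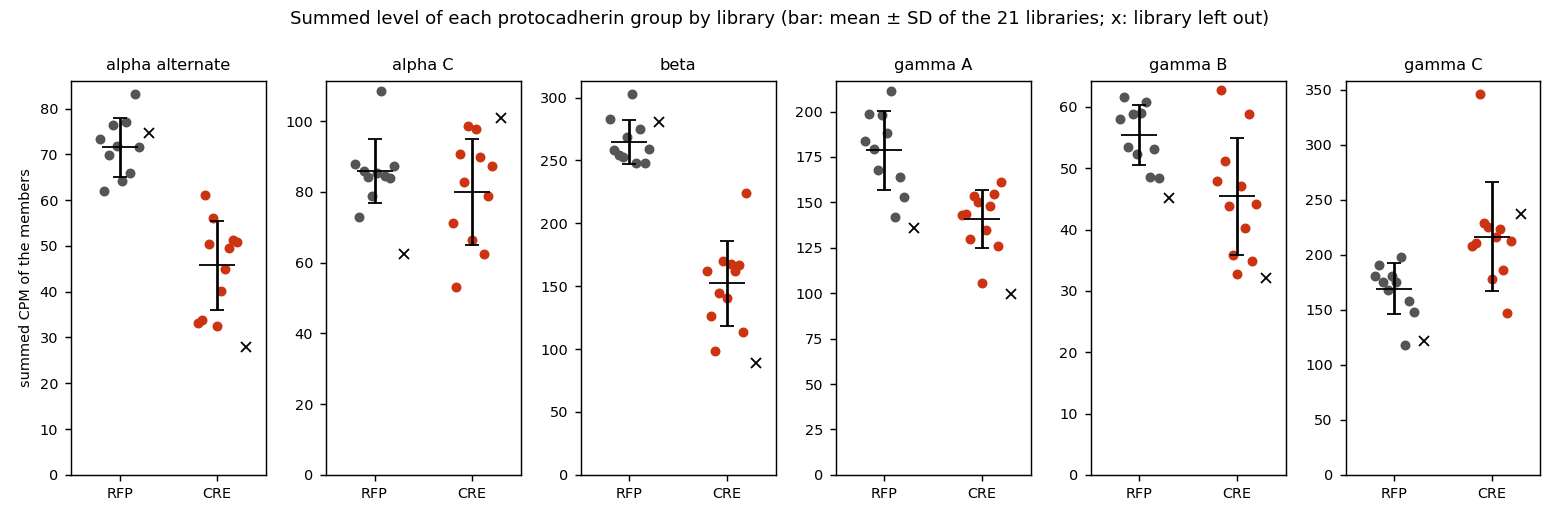
Summed CPM of the members of each group in every library, RFP grey and CRE red, with the mean and SD of the 21 libraries compared; crosses are CRE 3-3 and RFP 3-2, which were left out. The beta and alternate alpha sums of all 11 CRE libraries lie below all 10 RFP libraries, and the gamma C sums of 8 CRE libraries lie above them.

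The C-type genes went different ways. *Pcdhgc3*, whose protein is known to promote dendrite branching and to bind the Wnt pathway protein Axin1, and which astrocytes express as well as neurons, was the member that rose. *Pcdhgc3* (ENSMUSG00000102918, positions 37939416 to 37975014) ran from 92.2 to 277 CPM in CRE (median 140) and from 57.3 to 102 CPM in RFP libraries (median 88.5). Its log2 fold change was 0.71 (SE 0.15, adjusted p = 0.000695, edgeR). All 11 CRE libraries were above the RFP median and 9 above the highest RFP library. CRE 1-3, at 277 CPM, was the highest of all. Without the 4 libraries that stood apart, with all 23 libraries and in every fit without 1 library the gene stayed past the threshold, with a log2 fold change between 0.57 and 0.76 in the fits without 1 library.

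*Pcdhgc5*, known for its late rise in the developing brain, fell. It ran from 19.1 to 31.6 CPM in CRE (median 27.5) and from 22.6 to 60.0 CPM in RFP libraries (median 47.1), a log2 fold change of -0.77 (SE 0.16, adjusted p = 0.000782, edgeR). The RFP values were split by culture: 43.9 to 60.0 CPM in the 7 libraries of cultures 1 and 2, and 22.6 to 30.3 CPM in the 3 of culture 3, which overlapped the 19.1 to 27.8 CPM of the CRE libraries of that culture. The log2 fold change was -0.89, -1.07 and -0.06 in cultures 1, 2 and 3. This difference between cultures did not pass the test across all genes (adjusted p = 0.871, unadjusted p = 0.0045, edgeR), and without culture 2 *Pcdhgc5* was not past the threshold (adjusted p = 0.143, edgeR).

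*Pcdhgc4*, known for its role in the survival of neurons, was at 27.4 to 68.3 CPM in CRE (median 39.4) and 30.6 to 50.8 CPM in RFP libraries (median 37.7; log2 fold change 0.26, SE 0.16, adjusted p = 0.239, edgeR). *Pcdhac2*, known for spacing serotonergic axons apart, was at 50.8 to 96.4 CPM in CRE (median 79.3) and 71.2 to 103 CPM in RFP libraries (median 81.3; log2 fold change -0.13, SE 0.11, adjusted p = 0.418, edgeR). *Pcdhac1* was low in both groups, at 1.17 to 6.4 CPM in CRE (median 3.42) and 0.63 to 7.06 CPM in RFP libraries (median 2.93; log2 fold change 0.04, SE 0.35, adjusted p = 0.954, edgeR). The ranges of the 2 groups overlapped for each of these 3 genes.

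**Figure D4:**
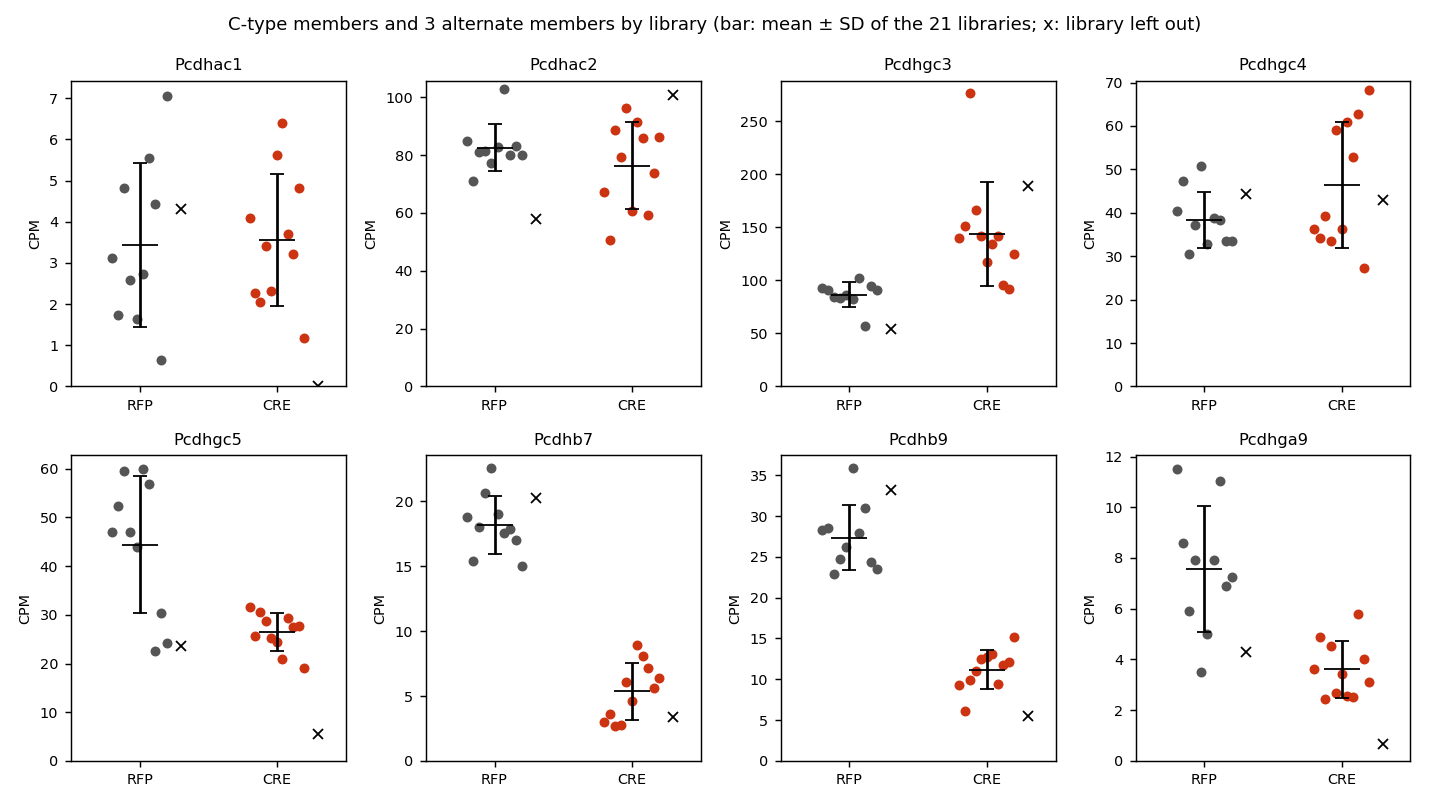
CPM in every library for the 5 C-type genes and for *Pcdhb7*, *Pcdhb9* and *Pcdhga9*, RFP grey and CRE red, with mean and SD of the 21 libraries compared; crosses are the libraries left out. *Pcdhb7* and *Pcdhb9* separate the groups, 9 CRE libraries exceed all RFP libraries for *Pcdhgc3*, and 3 RFP libraries lie among the CRE libraries for *Pcdhgc5*.

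The shares of C-type genes in the gamma and alpha arrays differed between the groups, as a description without a test. *Pcdhgc3* took 23.9% to 52.4% of the counts of the gamma members in CRE libraries (median 34.4%) and 18.6% to 25.9% in RFP libraries (median 21%). For every read of *Pcdhgc5* there were 3.32 to 9.06 reads of *Pcdhgc3* in CRE (median 5.61) and 1.37 to 3.75 in RFP libraries (median 1.88). *Pcdhac2* took 53.0% to 66.3% of the counts of the alpha members in CRE (median 61.4%) and 49.8% to 55.5% in RFP libraries (median 52.3%). In each of the 3 measures the highest CRE values lay above all RFP values and the lowest overlapped them. Summed, all alternate genes stood at 385 ± 48.3 CPM in CRE (SD, n = 11) and 571 ± 29.4 CPM in RFP libraries (SD, n = 10) without overlap, and the 5 C-type genes at 296 ± 57.2 and 255 ± 26.4 CPM.

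Levels of different genes were compared per kilobase of exon that no other gene covers on either strand. On this scale the highest RFP levels were 47.5 ± 6.54 CPM per kb for *Pcdhgc3* and 26.3 ± 2.59 for *Pcdhac2* (SD, n = 10), which did not overlap within their SD. *Pcdhga11* (13.8 ± 4.01), *Pcdhga3* (12.5 ± 2.73), *Pcdhgc4* (10.4 ± 1.75) and *Pcdhgc5* (9.52 ± 3.03) followed, each within its neighbour's SD. The medians were 6.06 CPM per kb for gamma A, 3.38 for alternate alpha, 2.58 for beta and 2.50 for gamma B genes. The highest beta gene was *Pcdhb9* at 7.32 CPM per kb in RFP and 3.00 in CRE libraries, the highest gamma B gene was *Pcdhgb6* at 5.25 in RFP libraries, and the lowest member was *Pcdha8* at 0.32. Since reads on constant exons were not credited to these genes, the scale leaves out that part of each transcript. It also leaves out bases covered on the opposite strand, which is proper only if the counting ignored strand, a setting not known here. Genes with much such cover, among them *Pcdhgc3* and *Pcdhga11*, stand higher for it. The distance between *Pcdhgc3* and *Pcdhac2* therefore depends on the length used. With all exon bases as the length, *Pcdhgc3* (15.5 CPM per kb) and *Pcdhac2* (13.7) were again the highest, but the order below them changed: *Pcdhb9* went from rank 9 to rank 3, *Pcdhga11*, from rank 3 to rank 14, and *Pcdhga4* from rank 13 to rank 34.

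**Figure D5:**
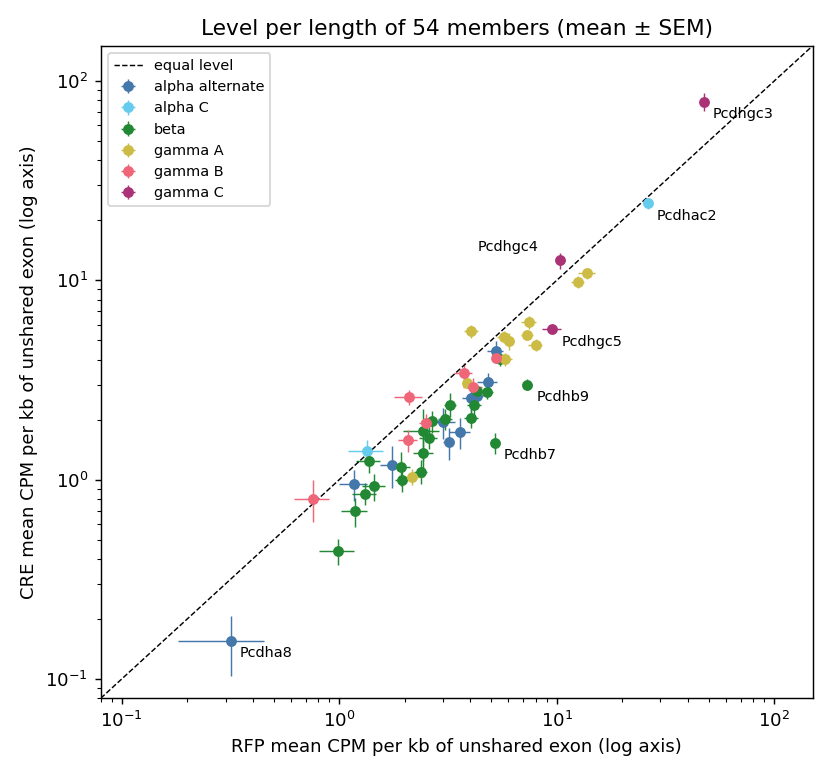
Mean CPM per kilobase of unshared exon in RFP (x) and CRE (y) libraries for all 54 members, on log axes with SEM bars; the dashed line marks equal levels. Beta and alternate alpha genes lie below the line, *Pcdhgc3* lies above it at the highest level, and *Pcdhac2* lies near it.

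Over the 53 members tested, Spearman's rho of the log2 fold change was 0.39 with the GC content of the unshared exon, 0.36 with the order along the cluster and 0.17 with the RFP level per kb. These are descriptions across genes of the same libraries. The GC content ran from 39.1% to 49.0% in beta genes, from 47.4% to 54% in gamma A and B genes and from 51.3% to 56.8% in alpha and C-type genes, so array and GC content are tied, and within the 21 beta genes rho was -0.01. When the trend of counts with GC content was taken out of every library, 25 members differed (37% of all genes), 22 of them among the 24.

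The differences had the same sign in most cultures. In 35 of 53 members (66%) the log2 fold change was negative in all 3 cultures, against 26.4% of all genes. *Pcdhga6* and *Pcdhgc3* were positive in all 3 (3.77% of the members, against 29.4% of all genes). Of the 23 members that fell, 22 were negative in every culture, *Pcdhb15* being the exception. These 23 were chosen by the fit of the same libraries, so their sign by culture was largely set by that choice. Only *Pcdhb7* and *Pcdhb9* passed edgeR's test within each of the 3 cultures. The median over members was -0.57, -0.68 and -0.39 in cultures 1, 2 and 3, beside 0.02, 0.01 and 0.03 over all genes. No member differed between cultures by edgeR's test of the interaction (0.0069% of all genes, or 1 of 14488, did; at an unadjusted p under 0.05, 4 members and 595 genes).

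Markers of several cell types moved between the same libraries. Of 8 neuron markers 6 fell and none rose (median log2 fold change -0.75), *Rbfox3*, the nuclear protein NeuN, by 1.03 and *Syt1*, a calcium sensor of synaptic vesicles, by 0.91 on the log2 scale. The neuron marker sum was 2622 to 5778 CPM in CRE and 6169 to 7362 CPM in RFP libraries, without overlap. Set against that sum, the beta genes came to 2.90% to 4.58% of it in CRE (median 3.42%) and 3.44% to 4.24% in RFP libraries (median 3.86%), and the alternate alpha genes to 0.69% to 2.33% (median 1.04%) and 0.85% to 1.23% (median 1.03%). These ratios overlapped between the groups for both sets, unlike the summed levels themselves. For the beta genes the CRE median, 3.42%, still lay below the lowest RFP value, 3.44%. The marker sum is not a count of neurons, and its 8 markers did not change alike. CRE 1-3 had the lowest neuron marker and beta sums and the highest *Pcdhgc3* and *Nes* levels of the CRE libraries compared. The same library had the highest alternate alpha sum of these CRE libraries, 61.0 CPM, and the highest ratio of that sum to the neuron markers, 2.33%.

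The other marker lists were mixed. Of 8 glutamatergic markers 5 fell and *Slc17a6* rose, of 8 GABA neuron markers *Slc32a1* and *Dlx5* rose and *Sst* fell, and of 8 markers of the oligodendrocyte lineage 5 fell. Of 9 astrocyte markers *Sox9* and *Gja1* rose and 4 fell. Of 6 progenitor markers tested *Nes*, an intermediate filament of neural progenitors, rose from 126 ± 16.7 CPM (SD, n = 10) to 977 ± 305 CPM (SD, n = 11), *Pax6* rose, and *Hes5*, *Mki67* and *Top2a* fell. Of 6 endothelial and mesenchymal markers tested *Pdgfrb* rose and *Kdr* fell, of 2 microglia markers tested *Tmem119* rose, and of 3 choroid plexus and ependyma markers tested none passed edgeR's test. With all 23 libraries *Syn1*, *Neurod2*, *Aldh1l1*, *Aldoc* and *Olig2*, which are among the falls counted here, missed the threshold. The part of any of these cell types in the protocadherin differences was not tested.

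Among genes known to act on the clusters, the shares past the test may be read against the 30.2% of all genes. Of 13 genes for CTCF, cohesin and its loaders and releasers, a lower share passed, 2 genes: *Ctcf*, which anchors promoters and enhancers of the alternate genes, at 60.5 ± 7.84 CPM in CRE (SD, n = 11) and 71.9 ± 7.17 CPM in RFP libraries (SD, n = 10; log2 fold change -0.27, adjusted p = 0.033, edgeR), and *Esco2*, a cohesin acetyltransferase of dividing cells, which fell by 1.70 on the log2 scale. Of 15 genes of chromatin silencing 3 passed, also a lower share: *Rest*, a repressor of neuronal genes, rose (0.80), and *Trim28* (-0.35) and *Hdac2* (-0.27) fell. With all 23 libraries *Trim28* and *Hdac2* missed the threshold (adjusted p = 0.160 and 0.159, edgeR). Of 6 genes of DNA methylation tested, *Dnmt3a*, a de novo methyltransferase, fell from 354 ± 23.4 to 258 ± 33.7 CPM (-0.47), and *Uhrf1*, which guides maintenance methylation, fell by 1.35 on the log2 scale.

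Some genes that act downstream of the proteins, or on them, also changed. Of 8 genes of the proteases that shed protocadherins 2 passed, both higher, a lower share than the 30.2% of all genes. *Aph1a*, a gamma-secretase subunit, was one of them (log2 fold change 0.39, adjusted p = 0.045, edgeR). Of 19 partners and signalling genes, 9 fell and *Axin1* rose (0.38). The falls with the smallest p were those of *Wasf1*, a subunit of the WAVE actin regulator that binds protocadherin tails (272 ± 28.6 CPM in RFP and 84.4 ± 20.2 CPM in CRE libraries, log2 fold change -1.71), and of *Ptk2b*, the kinase Pyk2, which the constant domain inhibits (155 ± 26.8 and 47.5 ± 12.2 CPM, -1.73). *Cyfip2* (-0.63), another WAVE subunit, and *Marcks* (-0.64), an actin regulator downstream of the gamma proteins, fell as well. *Marcks* missed the threshold with all 23 libraries (log2 fold change -0.25, adjusted p = 0.459, edgeR).

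Within 500 kb of either end of the clusters and between the arrays, 24 other genes were tested, and 5 passed, where 30.2% of all genes did. Of these *Cd14*, *Fchsd1*, *Dele1* and *Gnpda1* rose and *Zmat2* fell, and the median log2 fold change was 0.03. *Taf7*, which lies between the beta and gamma arrays, was at 16.8 ± 4.41 CPM in CRE (SD, n = 11) and 18.8 ± 4.15 CPM in RFP libraries (SD, n = 10) and did not pass the test (log2 fold change -0.18).

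The 4 candidates that were not members were *Pcdha4* (9 counts over 23 libraries), *Pcdha11* (6), *Pcdhb1* (37) and *Pcdhga10* (0). The annotation places genes of the opposite strand across all 2634 unshared exon bases of *Pcdhga10*, across 72.7% of those of *Pcdha11* and across 18.2% of those of *Pcdha4*, and across none of those of *Pcdhb1*. Among protein-coding genes with at least 95% of their unshared bases covered in this way, 22 of 46 stood at 0 counts, against 29.2% of 11320 genes with no such cover. The strand setting of the counting was not given in the sources used here, and its part in the low counts of these genes was not tested. Among members, opposite-strand cover was highest for *Pcdhb12* (63.5%), *Pcdhga11* (52.6%) and *Pcdhgc3* (46.1%). The gene opposite *Pcdhgc3*, *BC037039*, averaged 2.98 CPM in CRE and 1.31 CPM in RFP libraries.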

How the data were processed

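Poly(A) RNA libraries (Illumina Stranded mRNA Prep) were aligned by the authors with STAR 2.7.8a to GRCm39, using Ensembl release 110 gene models, and counted per gene with featureCounts 1.5.0-p1, per the labels and the methods. The authors deposited raw counts of reads per gene for each library, without normalization. Multi-mapping and strand settings are not given in the sources used here.

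Members, gene lists and tests were chosen with earlier results of these data known. Candidates were found by symbol in GENCODE M39 (GRCm39), and 56323 of 56941 identifiers were named. The 21 libraries follow the count table that accompanies the study, while the methods name CRE 1-3 and CRE 3-3 as removed. CRE was compared with RFP using edgeR 4.0.16 in R 4.3.3 (filterByExpr, TMM, robust glmQLFit, glmQLFTest), and p-values were adjusted by Benjamini-Hochberg over every gene tested. "Passed the test", "rose" and "fell" mean an adjusted p under 0.05. DESeq2 1.42.0, other scalings, filters, blocks and sets of libraries were 16 alternatives listed at the start, and a further 23 (GC trend removed with other libraries, and each library left out in turn) were chosen after seeing the data. The neuron marker ratios were also added then. The fit was tested on simulated data with 200 changed genes. Total counts of 7430401 to 17112815 per library set the precision. The paper gives an N of 3, defined as animals or biological replicates, for 12 CRE and 11 RFP samples, so libraries that share a culture number may not be independent. The p-values measure the spread between libraries, which may be in part technical, and sums per culture were run as an alternative.

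Named genes are, per group, up to 6 members past the threshold by smallest p, the highest per unshared kilobase and all C-type members; up to 4 genes per list; and neighbours within 500 kb. A gene that the rule takes is left out of the text. *Pcdhga6*, *Pcdhb13*, *Pcdhb4*, *Pcdhga3*, *BC037039*, the neighbours and the other members named for a range or a lost call were singled out after their values were seen. Same-numbered cultures did not deviate together (mean correlation between groups 0.03, from -0.26 to 0.23), so culture was not used as a block in the main comparison. Tables were made in Python 3.11.15 (pandas 2.3.3, numpy 2.4.6, scipy 1.17.1) and figures drawn in matplotlib 3.10.9.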

Additional observations from a re-analysis of the deposited data

Results flagged for a closer look

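In the 10 RFP libraries of the 54 members, 5 members had a library that lay far from the others by Dixon's criterion, where chance gives about 1 in 20. *Pcdhac2* was highest in RFP 2-4 at 103 CPM and *Pcdhb8* was highest in the same library at 14.5 CPM. RFP 2-4 is also the RFP library with the low share of mitochondrial counts, 3.43%. *Pcdha8* was highest in RFP 3-1 at 3.41 CPM and *Pcdhb12* was highest in RFP 3-4 at 6.86 CPM, both at low levels. *Pcdhgc3* was lowest in RFP 3-1 at 57.3 CPM, and in RFP 3-2, which was left out, it stood at 53.9 CPM. The CRE libraries were not screened by this criterion.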

How the results depend on the processing

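Over 955 pairs of a member and an alternative, 864 kept the direction and the side of the threshold, 60 lost the call, 19 gained it and 11 changed sign. The remaining pair was classed apart from these. Without culture 2 the count of members past the threshold went from 24 to 9, of them 8 lower in CRE libraries, and that of all genes from 4370 to 2114. The share of all genes that were lower in that fit is not given here. With sums per culture it was 14 members, 13 of them lower, and with no filter on low counts 6920 genes passed, where the median of all genes moved to 0.14. The sign changes concerned members that did not pass the test in either fit: *Pcdhac1* with all 23 libraries (-0.064), with the GC trend removed over them (-0.063) and without culture 2 (-0.27); *Pcdhgb8* without culture 1 (-0.37), without culture 3 (-0.0059), with library number as a block (-0.00071) and with the GC trend removed over 23 libraries (-0.0090); *Pcdhgb2* without culture 1 (0.078); and *Pcdha1* (0.076), *Pcdhb4* (0.091) and *Pcdhgb5* (0.022) without culture 2. The cause of these sign changes and lost calls was not tested.

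In the fits that each left out 1 library, 20 to 31 members passed, 19 to 30 of them lower and 1 to 2 higher, with a median log2 fold change over members from -0.64 to -0.49 and 4031 to 5507 genes past the threshold; 18 of the 24 members passed in all of them. The lowest count came without RFP 2-4 and the highest without CRE 3-4. With culture number as a replicate block, 23 of the 24 members passed, *Pcdhgb6* being the exception, and with library number 24 passed, 21 of them shared. The pairing is not given by the design, and 10 of 21 libraries correlated best with a library of their own culture number. *Nedd8* stayed between -2.60 and -2.29 under the alternatives. At these depths *Pcdha8*, with 0 to 3.41 CPM per RFP library, did not pass the main filter; in the 3 alternatives that tested it the adjusted p was 0.41 to 0.47 (edgeR), with a log2 fold change of -1.02 for sums per culture.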
